A study of Homo sapiens with 238 samples.

Results

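The unedited K562 cells that served as the control of the α-globin enhancer edits, αWT, were compared by RNA-seq with those that served as the control of the β-globin enhancer edits, βWT. The comparison took every library whose title names one of these lines, 8 for αWT and 4 for βWT, out of 62 RNA-seq libraries and 238 samples in the series. K562 is a human chronic myelogenous leukemia line that carries the BCR-ABL1 fusion and transcribes embryonic and fetal globin genes. In both groups the α-globin enhancer HS-40 and the β-globin enhancers HS2 and HS3 were left unedited, and both are described as grown in the same medium without treatment. The study mutated a G-quadruplex (G4), a folded guanine-rich DNA structure, in HS-40 (clones αMut1 and αMut2) or HS2 (clones βMut1 and βMut2), and deleted HS3 in unedited cells (WT-HS3Δ) or in HS2 mutant cells (βMut-HS3Δ). In clones αRes1 to αRes4, derived from αMut1, a G4 of another sequence (that of MYC) was placed back into HS-40. Edited cells were sorted 1 to a well, so each mutant clone grew from 1 cell. The labels do not say how αWT and βWT differ in passage, transfection or cloning, nor what separates αWT replicates 1 to 4 from replicates 5 to 8. Neither the sample titles nor the study's methods say whether RNA of the lines was harvested, prepared or sequenced together. Differences between the lines thus cannot be told apart from differences between such batches.

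Cells short of amino acids, or with unfolded protein in the endoplasmic reticulum, phosphorylate the initiation factor eIF2α. General translation then falls while the message of the transcription factor ATF4 is translated more, and ATF4 switches on genes for amino acid synthesis, amino acid import and stress signaling. Unfolded protein in the endoplasmic reticulum also activates ATF6 and XBP1, which raise chaperones of that compartment, whereas unfolded protein in the cytosol activates the heat shock factor HSF1. Lines grown from a common source can differ in such programs, in metabolism and in lineage genes, so an unedited control shows its own state beside the edit it is compared with.

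Total counts ranged from 21310532 to 48671570 (median 32623318) in αWT and from 27106608 to 31456233 in βWT. Levels are given as CPM, the counts of a gene scaled to library size, after TMM scaling over all 62 libraries, and differences as the log2 of αWT over βWT, so that a negative value is lower in αWT. The first principal component held 67.2% of the variance and separated the lines, and the second, with 18.8%, separated αWT replicates 1 to 4 from replicates 5 to 8. βWT replicate 1 stood apart from the other βWT libraries, with a chi-square per gene of 31.0 to 49.1 in its pairs against 2.70 to 4.16 among the others. αWT replicate 8 likewise stood apart in its set, with 19.8 to 33.1 in its pairs with replicates 5 to 7 against 4.39 to 6.99 among those. With genes split by GC content into 5 equal groups, the median log2 difference of βWT replicate 1 from the other βWT libraries went from -0.16 in the group of lowest GC to 0.22 in that of highest GC. Between the lines the median likewise went from -0.22 to 0.33. A fit with the GC and length trends removed is given beside several results. The labelled cell type was checked against a marker: GATA1, the erythroid master regulator, had 254 ± 23 CPM (SD, n = 8) in αWT and 272 ± 14.1 CPM (SD, n = 4) in βWT. Nothing states that replicates were separate cultures, so p-values measure the spread between these libraries.

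The unedited lines differed at 48.1% of the genes tested. Of 18196 genes, 4549 (25.0%) were called higher and 4198 (23.1%) lower in αWT, at an adjusted p below 0.05 (edgeR's quasi-likelihood test) and a log2 difference beyond 0.5. The median absolute log2 difference was 0.52, and 815 called genes differed by more than 2 on that scale. With αWT replicates 1 to 4 alone 3672 of the 4549 higher and 3683 of the 4198 lower genes were called in the same direction, with replicates 5 to 8 alone 3969 and 3764, and none was called in the opposite direction with either set. With GC and length trends removed, 3806 and 3530 were called. In 3438 of the higher and 3585 of the lower genes the 8 αWT libraries did not overlap with the 4 βWT libraries. Over all 18196 genes tested, called or not, this held for 8576 (47.1%), with αWT above in 4130 and below in 4446. A lack of overlap at a single gene is thus common between these lines.

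Genes of amino acid stress, of protein folding, of sterol and glucose metabolism and of the ribosome were described with 30 lists. These were chosen with earlier results of these data known, so their counts are a description and no test. The lists with the lowest medians were those of ATF4, with a median log2 difference of -2.71, of metallothioneins (-1.88, only 3 genes), of endoplasmic reticulum chaperones (-0.88), of glycolysis and hypoxia (-0.83) and of cholesterol synthesis (-0.75). The heat shock genes had the highest median, 0.87, while the median over all genes tested was 0.02. In the plot of list members the other lists had medians from -0.70 (lymphoid markers) to 0.71 (granulocyte and monocyte markers). Most of them held called genes on both sides.

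**Figure D1:**
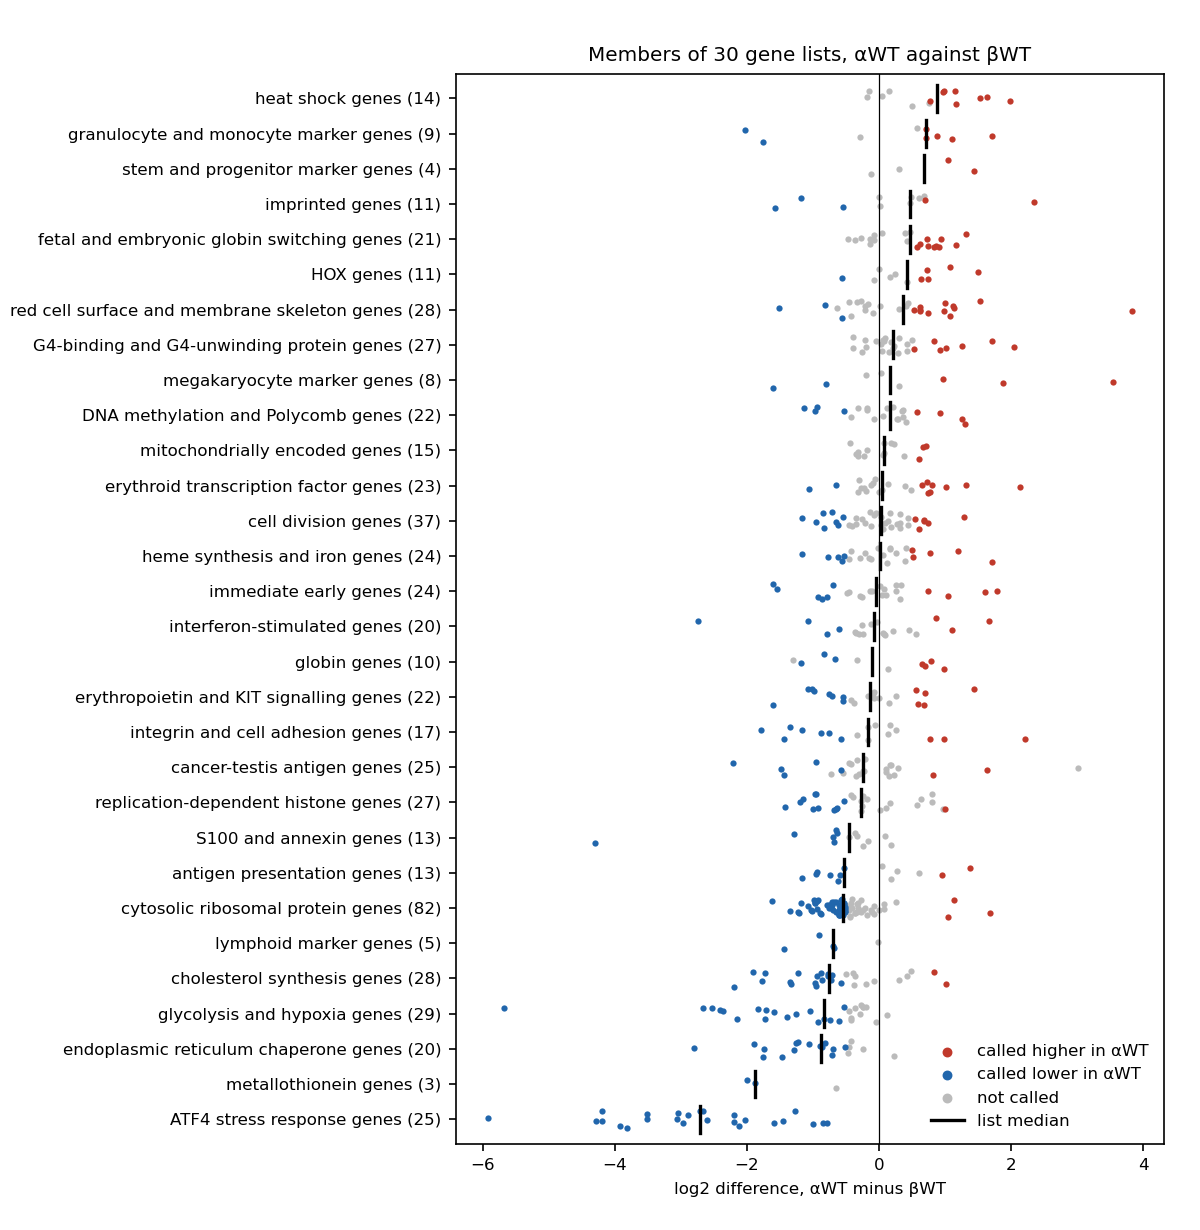
Log2 difference of αWT minus βWT (x axis) for every tested member of the 30 gene lists, whose number of tested members stands in brackets. Red points were called higher in αWT, blue points lower and gray points were not called, and the black bars are the list medians, from -2.71 for the ATF4 stress response genes to 0.87 for the heat shock genes.

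Promoters of some of the stress genes, fewer than those without, held the letters of the element by which their pathway is read. In RefSeq promoters of GRCh38.p14, taken from 250 bases before to 50 bases after the start, TGATGNAA, the element bound by ATF4 with its C/EBP partners, was found on either strand in 6 of the 20 ATF4 list genes with a promoter in the table, against 3.62% of all promoters. CCAAT and CCACG spaced by 9 bases, the endoplasmic reticulum stress element read by ATF6 and NF-Y, were found in 7 of 19 genes of the chaperone list against 0.0769% of all promoters. GAA, TTC and GAA spaced by 2 bases each, the heat shock element, were found in 5 of 13 heat shock genes against 0.490% of all promoters. All elements were searched on both strands, and matches describe letters, not binding. A list gene was counted once if any of its promoters matched, whereas the background counts single promoters, 35116 for 27305 genes. Genes with several promoters thus had more chances, and the shares are not in the same unit. The lists were also chosen by pathway, so the shares are a description only. Windows of 30 bases are shown, with the element in capitals (where it lies on the opposite strand, the capitals read as its reverse complement), for genes whose levels follow.
CHAC1, chr15:40953251-40953280, plus strand: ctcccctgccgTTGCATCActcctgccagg
ATF3, chr1:212565205-212565234, plus strand: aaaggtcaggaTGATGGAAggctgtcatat
ASNS, chr7:97872458-97872487, minus strand: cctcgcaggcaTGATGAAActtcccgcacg
FGF21, chr19:48755459-48755488, plus strand: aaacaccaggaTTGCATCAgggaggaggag
HSPA5, chr9:125241385-125241414, minus strand: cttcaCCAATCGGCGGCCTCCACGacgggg
XBP1, chr22:28800597-28800626, minus strand: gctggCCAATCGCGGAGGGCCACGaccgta
HSP90B1, chr12:103930211-103930240, plus strand: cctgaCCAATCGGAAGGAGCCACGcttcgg
HSPA8, chr11:123062345-123062374, minus strand: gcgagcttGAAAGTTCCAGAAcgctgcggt
HSPA8, chr11:123062170-123062199, minus strand: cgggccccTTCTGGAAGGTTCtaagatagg

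ATF4 stress response genes were lower in αWT throughout. All 25 members were tested and all 25 were called lower (background 23.1%). Because the list was chosen with earlier results of these data known, the background gives a scale and no test. In all 25 the libraries of the lines did not overlap, against 47.1% of all genes tested. The log2 differences ran from -5.92 to -0.79, with a median of -2.71. The lowest was that of FGF21, near the floor in αWT, which passed the count filter only through its βWT counts. With αWT replicates 1 to 4 alone the median was -3.0, with replicates 5 to 8 alone -2.51, and with GC and length trends removed -2.75, and in each of these fits the 25 genes were again called lower. Without βWT replicate 1 the other 24 were called lower and FGF21 fell under the count filter. The summed level of the list was 1829.8 ± 216 CPM (SD, n = 8) in αWT and 7877 ± 292 CPM (SD, n = 4) in βWT.

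DDIT4, an inhibitor of the growth kinase mTORC1 that lies at chr10:72273919-72276036 (hg38), had 54.5, 81.3 and 101 CPM as its lowest, median and highest level in αWT and 1405, 1393, 1461 and 1476 CPM in βWT replicates 1 to 4. Every βWT library was thus more than 10 times above every αWT library, and the log2 difference was -4.20 ± 0.16 (SE), adjusted p = 5.39e-11. CHAC1, which breaks down glutathione and carries the ATF4 element shown above, had 1.14, 3.98 and 7.12 CPM in αWT and 80.9, 77.9, 72.4 and 81.4 CPM in βWT. Its log2 difference was -4.28 ± 0.41 (SE), adjusted p = 4.61e-07, and the mean of αWT was 1.54 CPM in replicates 1 to 4 and 6.58 CPM in replicates 5 to 8. PHGDH, the first enzyme of serine synthesis (chr1:119648411-119744218), had 32, 35.5 and 38 CPM in αWT and 443, 385, 379 and 400.4 CPM in βWT. This was the smallest adjusted p of the list, 4.22e-14, at a log2 difference of -3.51 ± 0.06 (SE).

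Each enzyme of serine synthesis was lower in αWT. PSAT1, the second enzyme, was 7.70-fold higher in βWT (log2 difference -2.96 ± 0.07 (SE), adjusted p = 6.89e-13), and PSPH, the third, was 4.02-fold higher. SHMT2 and MTHFD2, which carry serine carbon into the mitochondrial folate cycle, were 2.72-fold and 4.53-fold higher in βWT. The stress transcription factors DDIT3 (CHOP) and ATF3 had means of 23.3 ± 2.58 and 7.62 ± 3.06 CPM (SD, n = 8) in αWT against 191 ± 13.6 and 114 ± 3.41 CPM (SD, n = 4) in βWT. DDIT3 overlaps MARS1 on the genome, and the counting of strand is not given. The hormone GDF15 was 13.9-fold higher in βWT, with a log2 difference of -3.81 ± 0.10 (SE), adjusted p = 1.91e-12. FGF21, another stress hormone, was close to the floor in αWT (at most 0.0400 CPM) and had 1.30, 0.852, 0.929 and 1.28 CPM in βWT. ATF4 itself differed less, at 2.37-fold. The amino acid carriers SLC7A5, SLC3A2 and SLC7A1 differed least in the list, by 1.71, 1.98 and 1.78-fold, while the cystine carrier SLC7A11 was 7.35-fold higher in βWT. ASNS, which makes asparagine, had 0.953, 2.87 and 6.95 CPM in αWT and 18.4, 20, 19.8 and 18.8 CPM in βWT, with αWT means of 1.15 CPM in replicates 1 to 4 and 5.00 CPM in replicates 5 to 8.

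**Figure D2:**
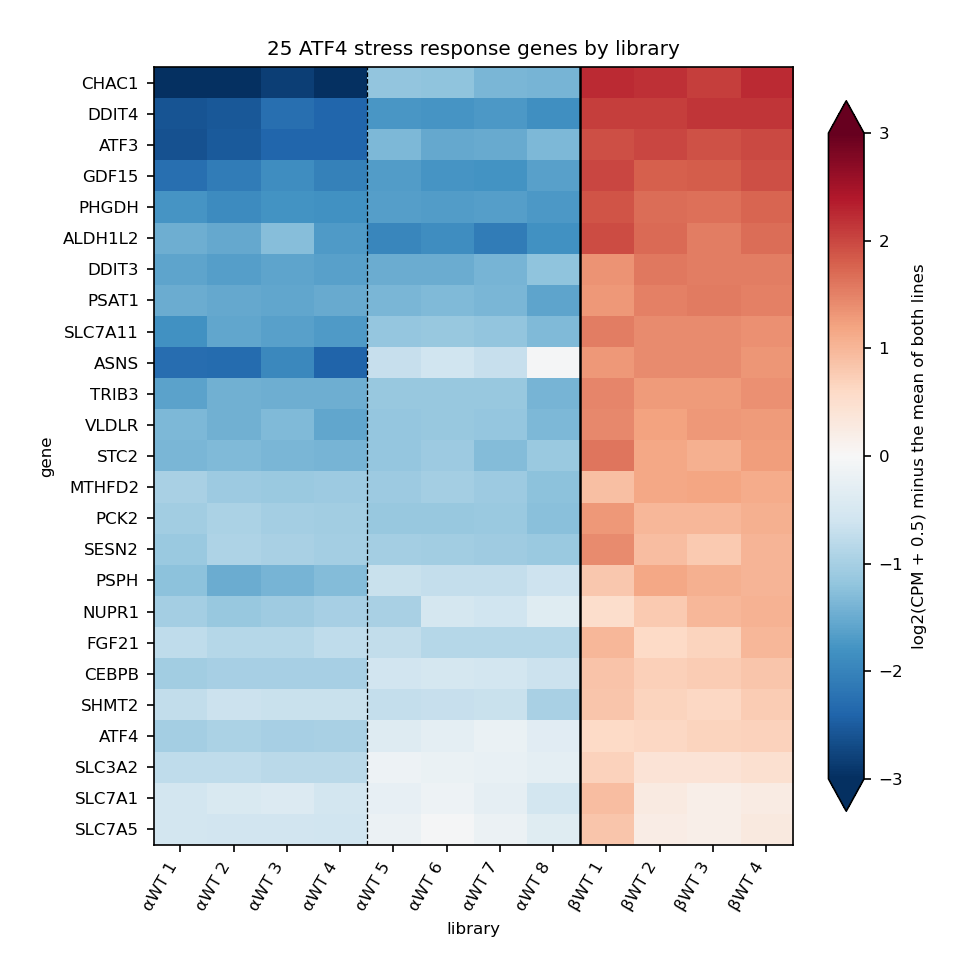
Level of the 25 ATF4 stress response genes (rows) in the 12 libraries (columns), as log2(CPM + 0.5) minus the mean of the 2 line means, with colors capped at -3 and 3. The solid line parts αWT from βWT and the dashed line parts αWT replicates 1 to 4 from 5 to 8. In every row each βWT library lies above each αWT library, and the log2 difference is -4.28 at CHAC1 and -4.20 at DDIT4.

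Endoplasmic reticulum chaperone genes were also lower in αWT, and cytosolic heat shock genes were higher. Of 20 chaperone genes tested 15 were called lower and 0 higher in αWT (background 23.1% and 25.0%), with a median of -0.88. Of 14 heat shock genes 8 were called higher and 0 lower, with a median of 0.87. HSPA5 (BiP, the main chaperone of the compartment, chr9:125234853-125241382) had 489, 526.2 and 623 CPM in αWT and 1896, 1731, 1764 and 1789.9 CPM in βWT. The lines did not overlap, and the log2 difference was -1.75 ± 0.07 (SE), adjusted p = 5.39e-11. Its ATF6-type element is among those shown above. HSP90B1, which folds receptors, was 2.41-fold and SEL1L and DNAJB9, which serve the disposal of misfolded proteins, were 3.32-fold and 3.67-fold higher in βWT. XBP1 was 2.06-fold higher in βWT. Of the 7 genes with the endoplasmic reticulum stress element 5 were called lower in αWT, and CALR (-0.42) and CRELD2 (0.22) were not called.

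Among the heat shock genes HSPH1, a nucleotide exchange factor for HSP70, had 252, 264 and 317 CPM in αWT and 99.2, 92.5, 93.8 and 94.1 CPM in βWT. All αWT libraries were above all βWT libraries, at a log2 difference of 1.52 ± 0.08 (SE), adjusted p = 8.88e-10. The inducible HSP70 gene HSPA1A was 4.01-fold higher in αWT (1.99 ± 0.17 (SE), adjusted p = 1.42e-07), but its near-identical copy HSPA1B (3.15-fold) may share its reads. The small chaperone HSPB1 and the HSP70 partner DNAJA1 were 2.26-fold and 2.28-fold higher in αWT. HSPA8, the constitutive HSP70 with 2 heat shock elements in its promoter, was 1.99-fold higher. The other members with that element were DNAJA1, called higher, and HSP90AA1 (0.49), HSP90AB1 (0.04) and HSPD1 (-0.16), none of which was called.

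Genes of sterol synthesis and glucose use were lower in αWT. Of 28 cholesterol synthesis genes 17 were called lower and 2, SREBF1 and FASN, which serve fatty acid synthesis, higher in αWT. Of 29 glycolysis and hypoxia genes 18 were called lower and 0 higher. Over all genes 23.1% were called lower and 25.0% higher. FDFT1 (squalene synthase) had 246, 276 and 307 CPM in αWT and 792, 912, 981 and 916 CPM in βWT, without overlap, and its log2 difference was -1.73 ± 0.07 (SE), adjusted p = 7.74e-11. MSMO1, a sterol demethylase, was 4.54-fold, ACAT2, which begins the pathway, 2.31-fold and FDPS, which makes farnesyl pyrophosphate, 1.90-fold higher in βWT. BNIP3, a mitophagy receptor induced by HIF-1, had 29, 33.2 and 38.1 CPM in αWT and 102, 124, 129 and 113 CPM in βWT, a log2 difference of -1.83 ± 0.10 (SE), adjusted p = 1.67e-09. PDK1, which keeps pyruvate out of the mitochondrion, was 4.37-fold, the collagen hydroxylase P4HA2 2.6-fold and the glucose carrier SLC2A3 2.99-fold higher in βWT. CA9, a carbonic anhydrase used as a marker of HIF activity, was near the floor in αWT (at most 0.349 CPM) and had 7.72, 6.75, 6.67 and 6.79 CPM in βWT. It overlaps ARHGEF39.

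Ribosomal protein genes were lower in αWT by smaller amounts, and histone genes varied with the αWT libraries used. Of 82 cytosolic ribosomal protein genes 50 were called lower and 3 higher (23.1% and 25.0% over all genes), with a median of -0.54, and the summed level was 22842 ± 1568 CPM (SD, n = 8) in αWT against 34493 ± 2908 CPM (SD, n = 4) in βWT. RPL3 of the large subunit had 571, 621 and 718 CPM in αWT and 1177, 1216, 1252 and 1236 CPM in βWT, with a log2 difference of -0.97 ± 0.06 (SE), adjusted p = 1.49e-08. RPL13A, RPSA and RPL5 were 2.02, 2.25 and 1.95-fold higher in βWT. Ribosomal protein genes have many processed copies, and how multi-mapping reads were counted is not given. Of 27 replication-dependent histone genes, whose messages end in a stem loop in place of a poly(A) tail and are thus poorly captured here, 11 were called lower and 1 higher. H1-2, a linker histone, had 279.6 ± 40.3 CPM (SD, n = 8) in αWT and 612 ± 37.9 CPM (SD, n = 4) in βWT. H2BC21, H2BC4 and H2AC13 were 1.92, 1.93 and 1.55-fold higher in βWT. The histone median was -0.78 with αWT replicates 1 to 4 and -0.12 with replicates 5 to 8. With the former 17 genes were called lower and 1 higher, and with the latter 11 lower and 9 higher.

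Proteins that bind or open G4 structures are of interest in this study, and 7 of 27 of their genes were called higher and 0 lower in αWT (background 25.0% and 23.1%). The share called higher, 25.9%, was near that over all genes, and single members are given as values. POLR2A, the largest subunit of RNA polymerase II (chr17:7484366-7514616), had 359, 397 and 448 CPM in αWT and 162, 73, 78.3 and 69.7 CPM in βWT. No αWT library came near βWT, but βWT replicate 1 lay more than 2 times above the other βWT libraries. The log2 difference was 2.04 ± 0.20 (SE), adjusted p = 6.22e-07, 2.41 without that replicate and 1.77 with GC and length trends removed. DHX9, a helicase, and the RNA-binding proteins HNRNPU and NCL were 2.42, 2.04 and 1.81-fold higher in αWT. The smaller polymerase subunits did not follow, as POLR2C had 0.08 (adjusted p = 0.308) and POLR2G -0.40, neither of them called. The transcription factor SP1 had 0.03 (adjusted p = 0.852).

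Globin genes differed in both directions. Of 10 tested members of the globin list 4 were called higher and 3 lower in αWT (25.0% and 23.1% over all genes). The genes called higher were the α-like genes HBA1, HBA2 and HBZ and the δ gene HBD, and those called lower were the ε gene HBE1 and the γ genes HBG1 and HBG2. HBA1, at chr16:176680-177522, had 134, 155 and 229 CPM in αWT and 119, 95.9, 100.3 and 106 CPM in βWT. The αWT libraries were all higher, and the log2 difference was 0.66 ± 0.14 (SE), adjusted p = 8.27e-04. HBZ, the embryonic α-like gene, had 192, 235 and 283 CPM in αWT and 129, 104, 113 and 126 CPM in βWT, without overlap, at 0.98 ± 0.10 (SE), adjusted p = 1.03e-06. HBA2 had a log2 difference of 0.79. With GC and length trends removed HBA1 and HBA2 were at 0.31 and 0.41 and not called, and with αWT replicates 1 to 4 alone at 0.43 and 0.44 and not called.

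HBE1, the embryonic β-like gene (gene model chr11:5268345-5505652), had 15.4, 21.7 and 31.5 CPM in αWT and 50.3, 50.1, 51.3 and 53.7 CPM in βWT, and its log2 difference was -1.19 ± 0.17 (SE), adjusted p = 2.66e-05. The highest αWT library was well below the lowest βWT library. HBG1 and HBG2, the fetal genes, had log2 differences of -0.83 and -0.67 (edgeR, adjusted p = 0.00148 and 0.0012), and with αWT replicates 5 to 8 alone both calls were lost, at -0.49 and -0.41. The pairs HBA1 and HBA2, and HBG1 and HBG2, are near-identical and may share reads, and the gene models of HBE1 and HBG2 overlap. HBD had 0.70 (adjusted p = 0.0215), and the call was lost without βWT replicate 1 and without βWT replicate 4, at 0.60 and 0.69, and with αWT replicates 1 to 4 alone, at 0.15. HBB, the adult gene, was at most 1.75 CPM in αWT and 2.52 CPM in βWT, and HBQ1 (-0.34) and the α-globin chaperone AHSP (0.13) were not called either. With GC and length trends removed HBB and HBQ1 were called lower, at -1.39 and -0.80, so that 2 genes of the list were higher and 5 lower. With αWT replicates 1 to 4 alone they were also called lower, at -3.40 and -0.89. The plot of globin levels shows that αWT replicates 5 to 8 lay above replicates 1 to 4 at most of these genes. Of the 10 genes 7 were called higher in replicates 5 to 8 than in replicates 1 to 4 and 0 lower, where 16.7% of 18307 genes tested were called higher and 9.15% lower.

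**Figure D3:**
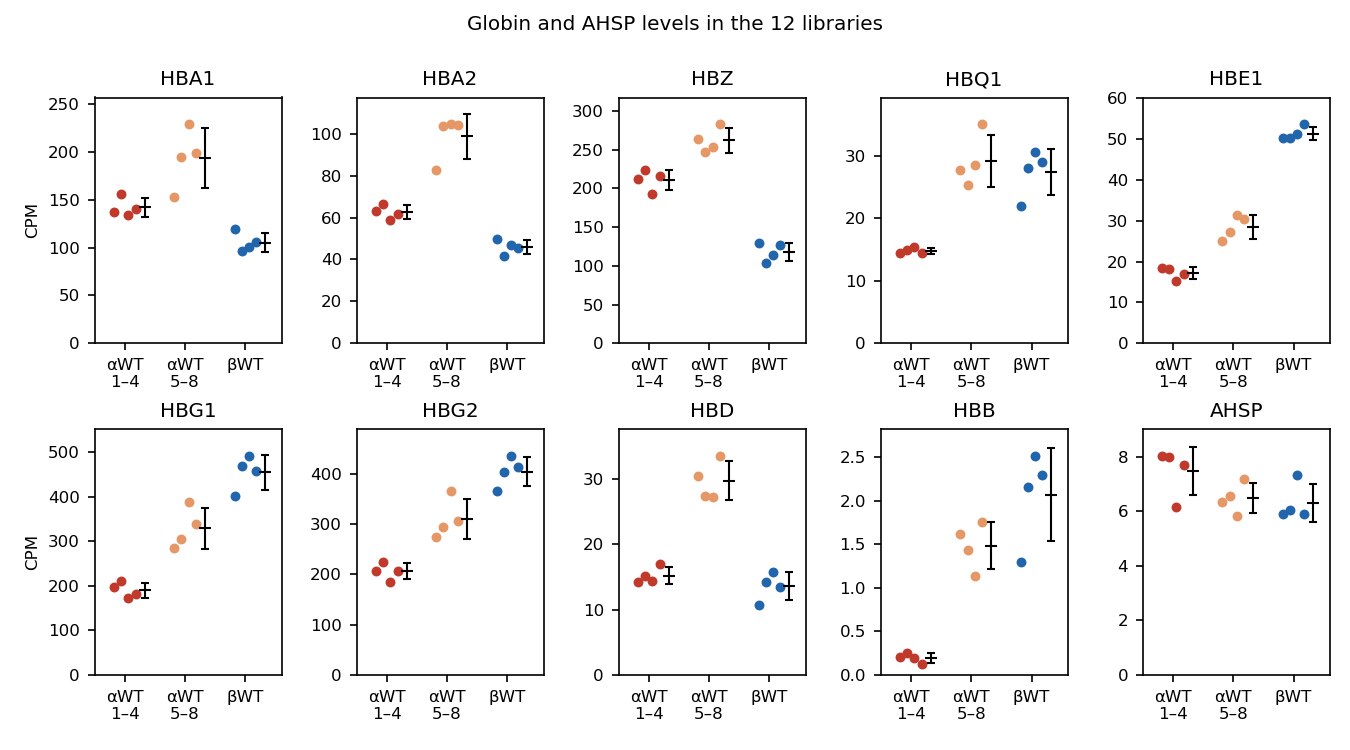
Level in CPM (y axis, from 0, scaled for each gene) of the 10 tested globin list genes in αWT replicates 1 to 4 (red), αWT replicates 5 to 8 (orange) and βWT (blue), with the mean ± SD of each set of 4 libraries in black. The means of HBA1, HBA2 and HBZ are higher in both αWT sets than in βWT, those of HBE1, HBG1 and HBG2 are lower, and that of HBD exceeds βWT in replicates 5 to 8, at 29.7 against 13.6 CPM on average.

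Erythroid regulators and membrane genes held called genes mostly on the αWT side. Of 23 erythroid transcription factor genes 8 were called higher and 2 lower (25.0% and 23.1% over all genes), of 21 genes that choose between embryonic, fetal and adult globin 10 higher and 0 lower, and of 28 red cell surface and membrane skeleton genes 12 higher and 3 lower. With GC and length trends removed these counts were 6 and 3, 8 and 0, and 10 and 3. ZFPM1 (FOG1, the partner of GATA1) had 66, 71.7 and 81 CPM in αWT and 22.3, 14.2, 14.4 and 15.8 CPM in βWT, without overlap and at a log2 difference of 2.13 ± 0.13 (SE), adjusted p = 4.29e-09. ZBTB7A, a repressor of fetal globin, was 2.52-fold higher in αWT, and the repressor complex members MBD3, GATAD2A and EHMT2 were 1.95, 1.85 and 1.91-fold higher. BACH1 and NFE2L2, which compete at antioxidant and heme genes, were 2.06 and 1.55-fold higher in βWT. GATA1 itself (-0.11, adjusted p = 0.171) and NFE2 (-0.01, adjusted p = 0.927) were not called, whereas TAL1 was 1.67-fold higher in αWT, with the call lost with αWT replicates 5 to 8 alone (0.50).

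AQP1, the water channel of red cells (chr7:30911853-30925517), was among the widest differences of all, with 23.6, 25.4 and 27.6 CPM in αWT and 2.20, 1.41, 1.89 and 1.58 CPM in βWT. Its αWT libraries lay within a narrow band, and the log2 difference was 3.83 ± 0.12 (SE), adjusted p = 6.81e-12. ANK1, which ties the membrane skeleton to the membrane, was 2.13-fold higher in αWT, although βWT replicate 1 (280.0 CPM) lay far above the other βWT libraries. EPB42, another skeleton gene, was 2.23-fold higher in αWT and RHAG, which carries the Rh complex, 1.45-fold higher in βWT, a call lost with GC and length trends removed (-0.33). Of 24 heme synthesis and iron genes 5 were called higher and 5 lower in αWT, a share near that over all genes (25.0% and 23.1% over all genes), and single members are given as values. The heme enzyme CPOX and the biliverdin reductase BLVRB were 2.22 and 1.69-fold higher in βWT, and the iron reductase STEAP3 and the heme exporter FLVCR1 2.31 and 1.73-fold higher in αWT. With GC and length trends removed the median of the membrane list went from 0.36 to 0.09.

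Of 22 cytokine signaling genes of this lineage 5 were called higher and 8 lower in αWT (25.0% and 23.1% over all genes), and without βWT replicate 1 the counts were 5 and 6. PIM1, a kinase gene induced by STAT5 (chr6:37170152-37175428), had 412, 431 and 493 CPM in αWT and 1487, 1274, 1268 and 1322 CPM in βWT. The lines did not overlap, and the log2 difference was -1.61 ± 0.07 (SE), adjusted p = 2.01e-10. STAT5B and STAT3 were 1.95 and 1.99-fold and their feedback gene SOCS2 1.63-fold higher in βWT. The receptor gene KIT, in contrast, was 2.73-fold higher in αWT, at 9.92 CPM on average in αWT replicates 1 to 4 and 4.47 CPM in replicates 5 to 8.

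Genes of other blood lineages were weakly transcribed, and several differed. Of 17 megakaryocyte, 18 granulocyte and monocyte, 20 lymphoid and 15 stem and progenitor markers only 8, 9, 5 and 4 had enough counts to be tested, and defining genes such as PF4 and VWF, MPO and ELANE, MS4A1 and CD79A, and CD34 were not among them. The tested megakaryocyte markers had 3 called higher and 2 lower, and the granulocyte and monocyte markers 5 called higher and 2 lower. Lymphoid markers had 0 called higher and 4 lower, and progenitor markers 2 called higher and 0 lower. Over all genes 25.0% were called higher and 23.1% lower, and with so few markers tested these counts are given as values. The summed level of the tested granulocyte and monocyte markers ranged from 71.6 to 91 CPM in αWT and from 61.8 to 69.3 CPM in βWT, and that of the lymphoid markers from 22.4 to 30.2 CPM against 47.8 to 52.7 CPM. In bulk RNA a small number of cells of a type cannot be told apart from low RNA in all cells.

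EPX, eosinophil peroxidase, had the largest difference in favor of αWT among coding genes with at least 5 CPM on average in the higher line, with 4.41, 5.25 and 6.16 CPM in αWT and at most 0.0663 CPM in βWT (adjusted p = 1.60e-11). HDC, which makes histamine in basophils and mast cells, followed with 3.56, 7.26 and 12.2 CPM in αWT and at most 0.236 CPM in βWT (adjusted p = 8.32e-07). Lack of overlap between the lines was a condition of this ranking, so it is no result for either gene. The selectin ligand gene SELPLG and the surface antigen gene CD24 were 8.97 and 7.19-fold higher in αWT, and lysozyme, LYZ, 1.65-fold, a call lost with αWT replicates 5 to 8 alone (0.48). ITGA2B, the platelet integrin chain CD41, was 3.02-fold higher in βWT (log2 difference -1.61 ± 0.13 (SE), adjusted p = 1.13e-07), while THBS1, a granule protein of platelets, was at 1.63 ± 0.458 CPM (SD, n = 8) in αWT and 0.135 ± 0.0458 CPM (SD, n = 4) in βWT. CD3D, a chain of the T cell receptor complex, had 6.79, 9.06 and 12.9 CPM in αWT and 20.3, 26.4, 28.8 and 25.5 CPM in βWT, 2.67-fold higher in βWT. IL2RG and CD3G were 1.58 and 1.86-fold higher in βWT. CEBPA and PRTN3, a granulocyte factor and protease, did not exceed 1.14 and 1.33 CPM in any library of either line.

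Several immune surface genes of the class I pathway were lower in αWT. Of 13 tested antigen presentation genes 2 were called higher and 7 lower (25.0% and 23.1% over all genes), and of 20 interferon-stimulated genes 3 higher and 4 lower. The edited clones did not show this direction, as given with the clones. HLA-E had 35.3, 39.1 and 45.3 CPM in αWT and 87, 84.2, 87.7 and 88.4 CPM in βWT, without overlap and at a log2 difference of -1.17 ± 0.08 (SE), adjusted p = 1.61e-08. HLA-C and HLA-B were 1.92 and 1.52-fold higher in βWT at low levels, and the proteasome subunit PSMB9, which overlaps TAP1 and PSMB8, 1.96-fold higher in αWT. Among the interferon genes IFITM1 was 1.70-fold and ISG20 6.78-fold higher in βWT, and OAS3 and RSAD2 2.17 and 3.25-fold higher in αWT. These antiviral genes thus did not move together.

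Adhesion, calcium-binding, early response and cell division lists are set against 25.0% of all genes called higher and 23.1% lower. S100 and annexin genes had 0 higher and 6 lower of 13. S100P, a calcium-binding protein, had 2.59, 3.27 and 4.51 CPM in αWT and 48.2, 71.9, 69.3 and 69.1 CPM in βWT, a log2 difference of -4.30 ± 0.14 (SE), adjusted p = 1.09e-11. ANXA1 was 2.41-fold higher in βWT. Integrin and adhesion genes had 3 higher and 7 lower of 17 tested, with the fibronectin receptor chains ITGA5 and ITGB1 2.67 and 1.82-fold and ITGB5 3.43-fold higher in βWT. Immediate early genes had 4 higher and 6 lower of 24, among them KLF6 and JUN, 2.88 and 3.01-fold higher in βWT, and FOSL1, 3.07-fold higher in αWT. Cell division genes had 6 higher and 8 lower of 37 and a median of 0.03, with the mitotic kinase genes BUB1 and TTK 1.76 and 1.91-fold higher in βWT.

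In lists of silenced or regionally controlled genes most shares called were near or below those over all genes (25.0% and 23.1% over all genes), and single members are given as values. Cancer-testis antigen genes, which are normally restricted to germ cells, had 2 higher and 5 lower of 25, with MAGEC1 3.13-fold higher in αWT and MAGEA8 2.76-fold higher in βWT. HOX genes had 5 higher and 1 lower of 11, with HOXB5 2.12-fold and HOXB6 1.68-fold higher in αWT and HOXB9 1.46-fold higher in βWT, a call lost without βWT replicate 1 (-0.48) and with αWT replicates 1 to 4 alone (-0.46). Imprinted genes had 2 higher and 3 lower of 11, with GRB10 2.25-fold higher in βWT and NDN 1.64-fold higher in αWT. DNA methylation and Polycomb genes had 4 higher and 4 lower of 22, with CBX2 and UHRF1 2.41 and 2.50-fold higher in αWT and CBX7 1.90-fold higher in βWT. The metallothionein genes MT1X and MT1G were 3.64 and 3.97-fold higher in βWT. Mitochondrially encoded genes had 3 higher and 0 lower of 15, of which MT-ND5 lost its call without αWT replicate 8, at 0.42, and without βWT replicate 2, at 0.54.

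Several of the largest differences lay outside the lists. NEFH, the heavy neurofilament chain (chr22:29480218-29491390), had 105, 119.9 and 161 CPM in αWT and 9.45, 6.62, 6.27 and 6.79 CPM in βWT, and its log2 difference was 4.08 ± 0.16 (SE), adjusted p = 4.89e-11. BSN, a presynaptic scaffold, and ASIC4, of the acid-sensing channel family, were 15.8 and 9.17-fold higher in αWT. EME2, of a DNA repair nuclease, was 9.38-fold higher, but at 32.3 CPM on average in αWT replicates 1 to 4 and 80.2 CPM in replicates 5 to 8, and its gene overlaps MRPS34. The read-through gene RTEL1-TNFRSF6B, the potassium channel KCNH4 and EVI2B, which lies within NF1, completed the 12 largest on this side. In favor of βWT, by the same rule, the largest was INHBE, an activin chain made under stress, with 1.11, 2.52 and 4.44 CPM in αWT and 155, 137, 131 and 146 CPM in βWT (-5.73 ± 0.30 (SE), adjusted p = 1.28e-09). ASS1, which joins citrulline to aspartate for arginine synthesis, was 27.6-fold and the cytokine receptor gene IL20RB, which overlaps NCK1, 24.4-fold higher in βWT. GABRG1, a GABA receptor chain, was 16-fold higher in βWT, and CFAP95, ACSM1, IL21R and SMIM24 were below 1 CPM in every αWT library and between 5.11 and 9.45 CPM in βWT.

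The differences were spread along the genome. Chromosome medians of the log2 difference, apart from the mitochondrial genome at 0.60, lay between -0.13 and 0.26, the highest on chromosome 16. Of 285 windows of 10 Mb with at least 20 tested genes 8 had a median beyond 0.5. This number depended on the libraries, at 4 with αWT replicates 1 to 4, 18 with replicates 5 to 8, 13, 5 and 4 without αWT replicates 1, 5 and 8, and 14, 5 and 4 without βWT replicates 1, 2 and 3. Higher in αWT were those that start at 60 Mb of chromosome 20 (0.80, 60 genes, among them ADRM1 and DIDO1), at 40 Mb of chromosome 21 (0.50, 68 genes, among them UBE2G2 and RRP1B) and at 50 Mb of chromosome 22 (0.50, 29 genes) and the mitochondrial genome. The mitochondrial value was a median over 25 genes. The 15 genes of the mitochondrial list had a median of 0.08. Their summed level was 11102 ± 3065 CPM (SD, n = 8) in αWT and 11700 ± 857 CPM (SD, n = 4) in βWT. Lower in αWT were those that start at 160 Mb of chromosome 4 (-0.64, 27 genes, among them MSMO1, CLCN3 and CBR4), at 20 Mb of chromosome 3 (-0.60, 27 genes), at 80 Mb of chromosome 8 (-0.54, 35 genes, among them ZFAND1) and at 120 Mb of chromosome 6 (-0.52, 31 genes, among them ARHGAP18). The windows that were higher had a median GC content of 54.9% to 62%, leaving out the mitochondrial genome, and those that were lower one of 40.1% to 41.0%. Across the 285 windows the median difference and the median GC content had a Spearman's rho of 0.675, and with GC and length trends removed 3 windows were beyond 0.5.

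Clones of the α and β series were compared to see whether the difference between the unedited lines recurred in libraries that the first comparison did not use. The mean of αMut1 and αMut2 (7 and 4 libraries) minus that of βMut1 and βMut2 (4 libraries each) gave 5324 genes higher (28.9%) and 4907 lower (26.6%) of 18442 tested. Of the 4549 genes higher in αWT 2975 (65.4%) were also called higher in these clones and 53 called lower. They made up 55.9% of the genes called higher between the clones. Of the 4198 genes lower in αWT 2811 (67.0%) were also called lower, 57.3% of those called lower between the clones, and 217 were called higher. Across 17845 genes the differences had a Pearson's r of 0.673. With WT-HS3Δ and βMut-HS3Δ on the β side, 1787 (39.3%) of the genes higher in αWT were again called higher and 511 (11.2%) lower. Of those lower in αWT 1129 (26.9%) were again called lower and 1006 (24.0%) higher. Over all genes 28.6% were called higher and 20.3% lower there, and Pearson's r was 0.177. Neither clone comparison shares a library with αWT and βWT, but each clone descends from K562 cells of the study. Genes are not independent replicates. Whether the clones of a series shared batches with its control is not given.

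**Figure D4:**
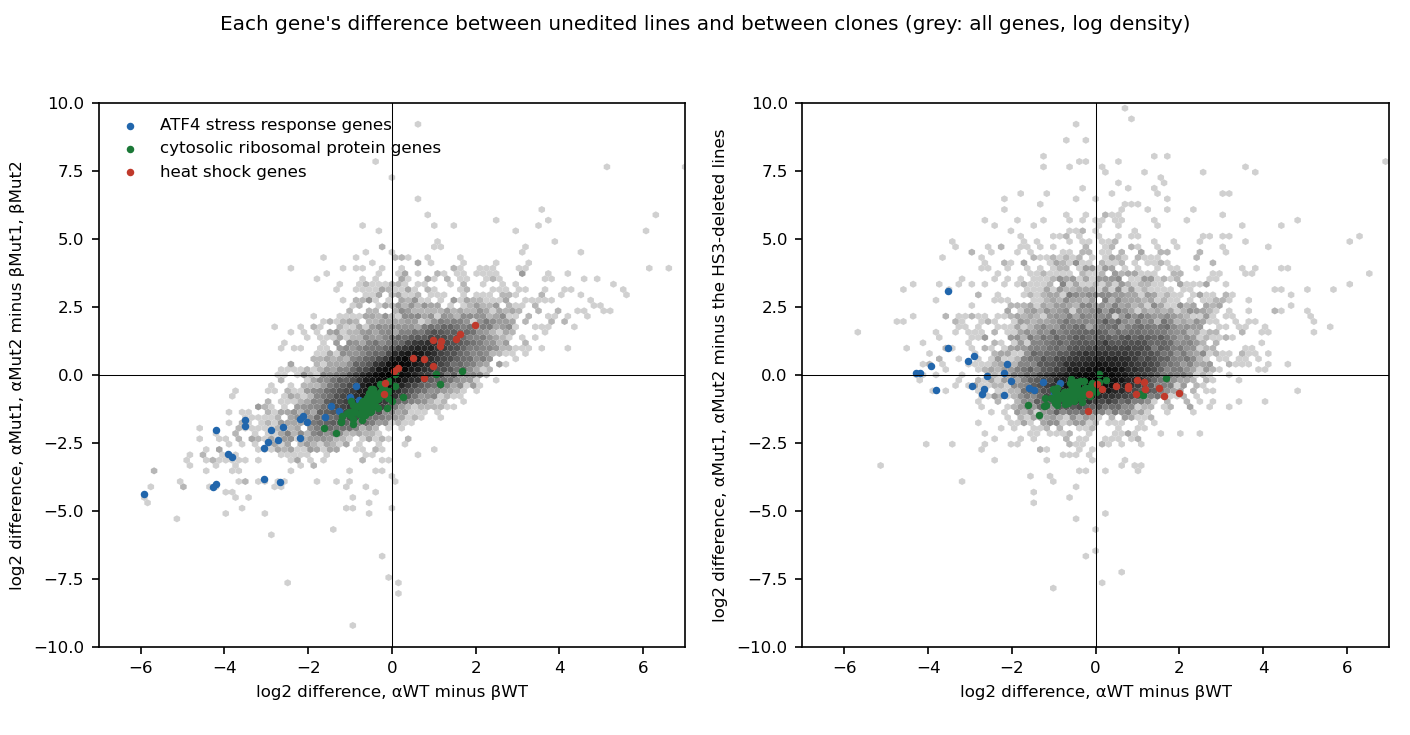
Log2 difference of αWT minus βWT (x axis) against the log2 difference between edited lines (y axis), with βMut1 and βMut2 on the β side (left, Pearson's r 0.673) or the HS3-deleted lines WT-HS3Δ and βMut-HS3Δ (right, 0.177). Gray hexagons hold all genes tested in both, darker where more genes lie (log scale), and colored points are members of 3 lists. On the left the ATF4 genes (blue) lie far below 0 on both axes, and on the right they lie around 0 on the y axis.

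The ATF4 list was called lower in 24 of 25 genes in the αMut clones than in βMut1 and βMut2 (26.6% over all genes). The median was -2.02. SLC7A1 was the remaining gene, at -0.40. With WT-HS3Δ (4 libraries) and βMut-HS3Δ (3 libraries) on the β side, against which 5204 genes were higher (28.6%) and 3693 lower (20.3%) of 18186 tested, 7 genes of the list were called lower and 4 higher, with a median of -0.23. The αMut libraries are shared by both clone comparisons. DDIT4 had a mean of 1254 and 1354 CPM in βMut1 and βMut2, of 111 and 53.8 CPM in WT-HS3Δ and βMut-HS3Δ, and of 83.1 and 82.3 CPM in αMut1 and αMut2. The high level of βWT was thus shared by the HS2 mutant clones and not by the HS3-deleted lines. The summed list level was 7967 ± 533 CPM (SD, n = 4) in βMut1, 5829 ± 398 CPM (SD, n = 4) in βMut2, 2748 ± 88.8 CPM (SD, n = 4) in WT-HS3Δ and 2158 ± 112 CPM (SD, n = 3) in βMut-HS3Δ. Sample titles name the HS3-deleted lines as derived from βWT, with a sum of 7877 CPM, and βMut1. HS3 deletion, and the nickase vector with puromycin used for it, cannot be told apart from any later divergence of these lines.

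Other programs divided the β lines differently. NEFH, low in βWT, had means of 4.9 and 16.4 CPM in βMut1 and βMut2 but 156 and 119 CPM in WT-HS3Δ and βMut-HS3Δ, against 125 CPM in αWT. For the lists that follow, 28.9% of all genes were called higher and 26.6% lower in the αMut clones against βMut1 and βMut2. Against the HS3-deleted lines these shares were 28.6% and 20.3%. Of 14 heat shock genes 8 were called higher and 1 lower in the αMut clones against βMut1 and βMut2. Against the HS3-deleted lines 0 were called higher and 7 lower. Ribosomal protein genes were called lower in the αMut clones in 73 of 82 genes against βMut1 and βMut2 (median -1.03) and in 62 of 82 against the HS3-deleted lines (median -0.66), with 0 called higher in each. SELPLG was below 5 CPM on average in every β line (0.849, 1.79, 3.96 and 2.45 CPM in βMut1, βMut2, WT-HS3Δ and βMut-HS3Δ) and at 15.6 and 18.3 CPM in αMut1 and αMut2. HDC was below 1 CPM in all β lines and at 20.1 and 4.89 CPM in αMut1 and αMut2. Some lists turned round. Antigen presentation genes, with 2 higher and 7 lower in αWT, had 9 higher and 2 lower in the αMut clones against βMut1 and βMut2 (median 1.08) and 8 higher and 0 lower against the HS3-deleted lines (median 0.86). Interferon-stimulated genes had 11 higher and 3 lower, and 14 higher and 2 lower. Globin genes had 0 higher and 9 lower against βMut1 and βMut2 (median -1.33) and 2 higher and 6 lower against the HS3-deleted lines. HBA1 and HBA2, called higher in αWT, were called lower in the αMut clones, at -0.74 and -0.92 against βMut1 and βMut2. The enhancers of these genes are the edited sites, so edit and line cannot be told apart there. Cholesterol synthesis genes were called lower in 17 of 28 genes against βMut1 and βMut2 and in 19 against the HS3-deleted lines. Glycolysis and hypoxia genes had 13 lower and 0 higher of 29 against βMut1 and βMut2 (median -0.39). Against the HS3-deleted lines 8 of them were called lower and 4 higher (median -0.24). Of 20 endoplasmic reticulum chaperone genes 7 were called lower and 0 higher against βMut1 and βMut2 (26.6% and 28.9% over all genes), and 5 lower and 2 higher against the HS3-deleted lines (20.3% and 28.6%).

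**Figure D5:**
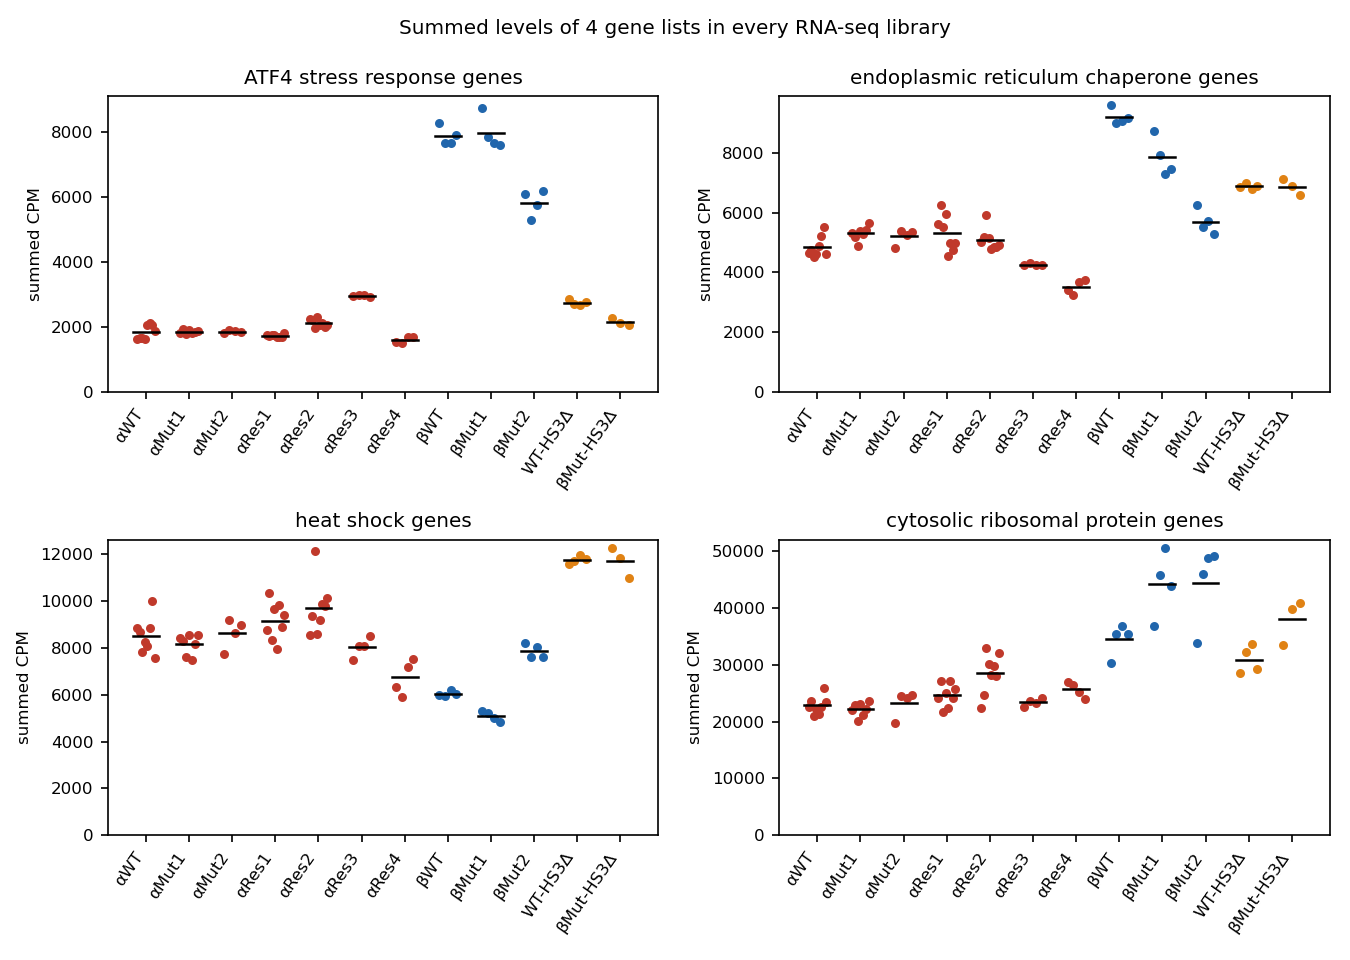
Summed level in CPM (y axis, from 0) of the tested members of 4 gene lists in each of the 62 RNA-seq libraries, grouped by line, with α lines in red, βWT, βMut1 and βMut2 in blue and the HS3-deleted lines in orange. Bars are line means. The mean ATF4 sum is 7877 CPM in βWT and at most 2955 CPM in any α line, including the αRes clones, and the mean ribosomal protein sum is higher in all 5 β lines than in any α line, although single libraries overlap.

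The difference between the αWT sets gives a scale for these values. Replicates 5 to 8 against replicates 1 to 4 gave 3050 genes higher and 1675 lower of 18307, and 87 called genes differed by more than 2 on the log2 scale, against 815 between the lines. The median absolute log2 difference was 0.30 between the sets and 0.52 between the lines. Histone genes were called higher in replicates 5 to 8 in 15 of 27 genes and lower in 0, and ATF4 genes higher in 7 and lower in 1 of 25. What the sets differ in is not labelled.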

How the data were processed

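RNA was measured in 62 poly(A)-selected, directional libraries, of which 8 αWT and 4 βWT libraries were compared. The authors trimmed paired reads with cutadapt, aligned them to hg38 with bwa mem, marked duplicates and counted reads per gene with featureCounts, and deposited raw counts for 62696 genes per library. SAMtools 1.15.1 and R 4.3.0 are named in the submitters' processing notes. Strand and multi-mapping settings are not given in the sources used here, which bears on overlapping and near-identical genes. Poly(A) selection bears on histone and mitochondrial genes.

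Counts were tested with edgeR 4.0.16 (R 4.3.3), using TMM scaling, the quasi-likelihood test and Benjamini-Hochberg adjustment over the genes whose counts averaged 10 or more per library. Calls required an adjusted p under 0.05 and a log2 difference beyond 0.5 in either direction. The 12 libraries were fitted alone, the edited clones together, and the αWT sets alone. Of the gene IDs, 62625 matched GENCODE 44, which gave positions. CPM values were TMM-scaled. The fits were tested on simulated data. Total counts, from 21310532 to 48671570, limit the precision for genes near the count minimum. Samples were grouped by title.

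The members and the 30 gene lists were chosen with earlier results of these data known. The genes named were the globin genes, the 12 coding genes with the largest differences in each direction (at least 5 CPM in the higher line, no overlap between libraries), up to 4 called members of each list with the smallest adjusted p, up to 3 called coding genes with the highest CPM in each window of 10 Mb beyond 0.5, and POLR2A, POLR2C, POLR2G, GATA1, NFE2, TAL1, SP1 and NPRL3. Genes with a Y-linked copy were left out, and other list members were named after their values were seen. Alternatives were DESeq2 1.42.0, limma 3.58.1 (voom), RLE size factors, other count filters and thresholds, subsets of libraries, a replicate block, all 62 libraries in 1 fit and, chosen after seeing the data, removal of GC and length trends and the HS3-deleted lines as the β side. The ChIP-type, chromatin accessibility and contact samples were not used here.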

Additional observations from a re-analysis of the deposited data

Results flagged for a closer look

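Within the αWT libraries (replicates 1 to 8) and the βWT libraries (1 to 4) of each gene named, the highest or lowest library was compared with its neighbor. In 45 of 366 such groups (12.3%) it stood apart by Dixon's test, where chance gives about 1 in 20. βWT replicate 1 accounted for 25 of them and αWT replicate 8 for 9.

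βWT replicate 1 stood above the other βWT libraries at POLR2A (162 CPM), HNRNPU (867 CPM), ANK1 (280.0 CPM), ZBTB7A (56.6 CPM), MBD3 (93.5 CPM), EHMT2 (112 CPM), STEAP3 (43.5 CPM), SP1 (184 CPM) and NPRL3 (139 CPM). It was also the highest at BSN (1.46 CPM), NEFH (9.45 CPM), CA9 (7.72 CPM), HSP90B1 (1340.0 CPM), SLC2A3 (453 CPM), ITGA5 (333 CPM), MAGEC1 (52.2 CPM), CBX2 (38.2 CPM), CBX7 (14.9 CPM), PLXNB2 (79.2 CPM) and SLC7A1 (264 CPM). At S100P (48.2 CPM), DDIT3 (171 CPM), ANXA7 (308 CPM), RPL15 (466 CPM) and SERINC1 (161 CPM) it stood below the others.

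αWT replicate 8 stood above the other αWT libraries at the mitochondrial transcripts MT-RNR1 (464 CPM), MT-ND1 (1230.0 CPM) and MT-ND5 (1200.0 CPM), and at ASIC4 (36.6 CPM), CSF3R (3.66 CPM) and CFAP95 (0.635 CPM). It stood below them at ITGB1 (188 CPM), RRP1B (200.0 CPM) and CLCN3 (126 CPM).

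Single libraries of other replicates stood apart at AHSP (βWT replicate 3, 7.33 CPM, high), THBS1 (βWT replicate 3, 0.0663 CPM, low), SOCS2 (βWT replicate 3, 252 CPM, low), CRELD2 (βWT replicate 3, 19.5 CPM, low), SELPLG (βWT replicate 2, 1.54 CPM, high) and RSAD2 (βWT replicate 2, 1.31 CPM, high). In αWT these were NDN (replicate 1, 10.4 CPM, high), CBR4 (replicate 1, 30.8 CPM, high), ACSM1 (replicate 4, 0.0318 CPM, low), HSPA8 (replicate 7, 2710.0 CPM, high) and 1 progenitor marker (replicate 2, 0.290 CPM, low).

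HLA-C and HLA-B were lower in αWT than in βWT in all libraries and higher in the αMut clones than in βMut1 and βMut2, with log2 differences between the clones of 2.28 and 2.75. The difference between these contrasts was not tested.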

How the results depend on the processing

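Of the counts of called genes, those under a log2 threshold of 1 moved most, to 3987 between αWT and βWT (2265 higher, 1722 lower), 4736 between the edited clones (2527 higher, 2209 lower) and 1605 between the αWT sets (1254 higher, 351 lower). With a mean of at least 50 counts the αWT sets gave 2989 (1970 higher, 1019 lower). Windows beyond 0.5 numbered 3 with GC and length trends removed (chosen after seeing the data), 4 with αWT replicates 1 to 4 and 18 with replicates 5 to 8. Leaving out each library in turn gave 8173 to 8953 called genes between αWT and βWT (4177 to 4638 higher, 3996 to 4315 lower), 10011 to 10460 between the clones (4869 to 5455 higher, 4865 to 5398 lower), 4253 to 4942 between the sets (2659 to 3270 higher, 1520 to 1713 lower), 4 to 14 windows and 15 to 16 lists with most members called. The cause of these changes was not tested.

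Same-numbered αWT and βWT libraries did not deviate together (r from -0.116 to 0.0578), so the numbers do not pair them. With the replicate number as a block 4469 genes were called higher and 4494 lower between αWT and βWT, and 10375 genes in all between the clones.

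Genes that changed sign were not called in the reported comparison or under the setting that turned them. HBQ1 was at 0.0646 with αWT replicates 5 to 8. NFE2 was at 0.0608 with αWT replicates 1 to 4, 0.0115 with a mean of at least 50 counts, 0.0549 with the block and -0.04 to 0.0113 without single libraries. SP1 was at -0.0678 with GC and length trends removed, -0.169 with αWT replicates 5 to 8 and -0.0111 to 0.103 without single libraries. NPRL3 was at -0.109 and HSPD1 at 0.000963 with the trends removed, and CRELD2 at -0.148 with αWT replicates 1 to 4 and -0.152 with the block. Of 183 genes followed, GC and length removal weakened 11 calls, αWT replicates 1 to 4 alone 9 and replicates 5 to 8 alone 6, while DESeq2 and limma each weakened 0. Genes under the count minimum, among them most markers of other blood lineages, could not be tested at this depth.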
